A study of Mus musculus with 41 samples.

Results

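The genes described here are 8 members and partners of the Notch pathway in mouse microglia: the ligand gene Jag1, the receptor genes Notch1, Notch2 and Notch4, the nuclear factor gene Rbpj, the Hes family genes Hes1 and Hes6, and the Deltex family gene Dtx4. They were found by symbol among the 24537 gene symbols of the deposited mouse read-count table, and all 8 were present. They were chosen by their measured read counts in these same libraries, namely how these differed between the groups, so every level and difference of the 8 genes is given as a description, without a test. Tests are given only for 55 other genes of the pathway.

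RNA was measured in 21 libraries from C57Bl6 mice, for which neither age nor sex is stated. Microglia, which are the brain's own macrophages, were sorted as live CD11b+ CD45Low cells and either lysed at once (ex vivo, 5 libraries) or plated in DMEM/F12 medium with fetal bovine serum and a daily addition of the cytokine interleukin-34. The cultures were collected at 6 h (2 libraries), 24 h (3 libraries, replicate 2 being labelled 22 h) and 7 d (5 libraries), and 2 further libraries came from 7 d cultures that also received TGFβ. Whole-brain lysate, which was not sorted, gave 4 libraries. Peak lists of the same strain covered accessible chromatin (ATAC-seq) and the histone mark H3K27ac in ex vivo and 7 d cells, and the mark H3K4me2 and the transcription factor PU.1 in ex vivo cells, each from 2 pooled libraries. Replicate 2 of the 7 d ATAC-seq carries the label 8 d, and no peak list of cells given TGFβ was analysed here. The labels do not say whether libraries came from separate mice or cultures, so the spread between replicates may be technical.

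Notch receptors are cut and modified in the secretory pathway, bind Jagged or Delta ligands on a neighbouring cell, and are then cleaved by ADAM proteases and γ-secretase. The released intracellular domain enters the nucleus and joins RBPJ and a Mastermind coactivator on target genes, among them Hes and Hey repressors. In the brain the pathway is best known for keeping neural progenitors undifferentiated and for its part in blood vessels, and in macrophages for its crosstalk with inflammatory signals.

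The libraries held between 11584600 and 28841500 counts. Levels are given in CPM, counts scaled to a common library size, after adjustment with the trimmed mean of M-values (TMM), and n is the number of libraries. The adjustment mattered most at 6 h, where the 2 factors were 0.784 and 0.814 against 0.916 to 1.13 in the other microglial libraries. With total counts alone the median log2 change of all genes tested was -0.57 in place of -0.17 for 6 h against ex vivo, and 0.44 in place of 0.01 for 24 h against 6 h. For ex vivo against lysate it was -0.41 in place of -0.10. The summed CPM (over total counts) of 8 microglial marker genes was 40997 to 49886 ex vivo, 3650 to 10716 in culture without TGFβ, 16546 to 18025 with TGFβ and 271 to 373 in lysate. At 7 d alone the 8 microglial markers summed to 6963 to 10716 CPM. Among them, Siglech stood at 0.321 to 1.89 CPM at 7 d against 1257 to 1602 ex vivo, so the others made up that sum. Among the ex vivo libraries the summed CPM of 10 immediate-early genes ran from 810 (replicate 3) to 31523 (replicate 1).

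Jag1 encodes Jagged1, a membrane ligand of Notch receptors, and lies at chr2:137081451-137116520 on the minus strand of GRCm38 (mm10). Ex vivo it was nearly absent, at 1.86, 1.44, 0.645, 0.573 and 0.667 CPM in replicates 1 to 5, which rest on 40, 23, 16, 8 and 12 reads. The exact 95% Poisson interval of the lowest count, 8 reads, was 3.45 to 15.8 reads, which covers counting error only. At 6 h the 2 libraries held 1308 and 1213 CPM. At 24 h the 3 libraries held 555, 670 and 531 CPM. The 7 d libraries held 369, 115, 95.9, 328 and 349 CPM. With TGFβ the 2 libraries held 70.2 and 143 CPM.

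Every cultured library thus stood far above every ex vivo library in Jag1. Against ex vivo the fitted log2 difference was 10.23 ± 0.58 (SE) for the 6 h group and 9.12 ± 0.55 for the 24 h group. It was 7.90 ± 0.52 for the 7 d group and 6.66 ± 0.53 for the TGFβ group. The first of these is a 1199-fold difference, and its size depends on the few ex vivo reads. In order of their means, 6 h (1261 ± 67.3, SD, n = 2), 24 h (586 ± 74.3, n = 3) and 7 d (251.5 ± 134, n = 5) did not overlap with their neighbours, while the 7 d and TGFβ groups (107 ± 51.5, n = 2) did. The difference of the TGFβ group from 7 d was -1.24 ± 0.51 on the log2 scale. Under the alternatives it ran from -0.81 to -1.83, the latter without TGFβ replicate 2. Without that library the difference of the TGFβ group from ex vivo was 6.08.

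The 7 d libraries fell into a higher and a lower set for Jag1, with replicates 2 and 3 below the other 3. The summed CPM of 8 proliferation genes was 778 and 339 in replicates 2 and 3 and 70.0 to 271 in the other 3. The summed CPM of 6 border macrophage markers was also highest in these 2 libraries, at 120 and 88.2 against 54.8 to 72.6 CPM. So were the sums of endothelial (40.2 and 44.4 against 15.9 to 32.5 CPM) and mural markers (21.6 and 10.7 against 2.94 to 5.17 CPM). The same held for microglial, oligodendrocyte, oligodendrocyte precursor, choroid and ependyma, neutrophil and B cell markers. It did not hold for astrocyte, neuron, monocyte, and T and NK cell markers. The part of any of these lists in the difference was not tested. Across the groups, the summed CPM of 7 mural cell markers was 3.56 to 6.67 ex vivo, 78.0 and 86.8 at 6 h, where Jag1 was highest, and 10.8 to 13.4 at 24 h. Of the 6 h sums Cspg4 alone gave 72.4 and 80.2 CPM, and Rgs5 and Kcnj8 were at 0; the part of these markers in the Jag1 level was not tested.

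**Figure D1:**
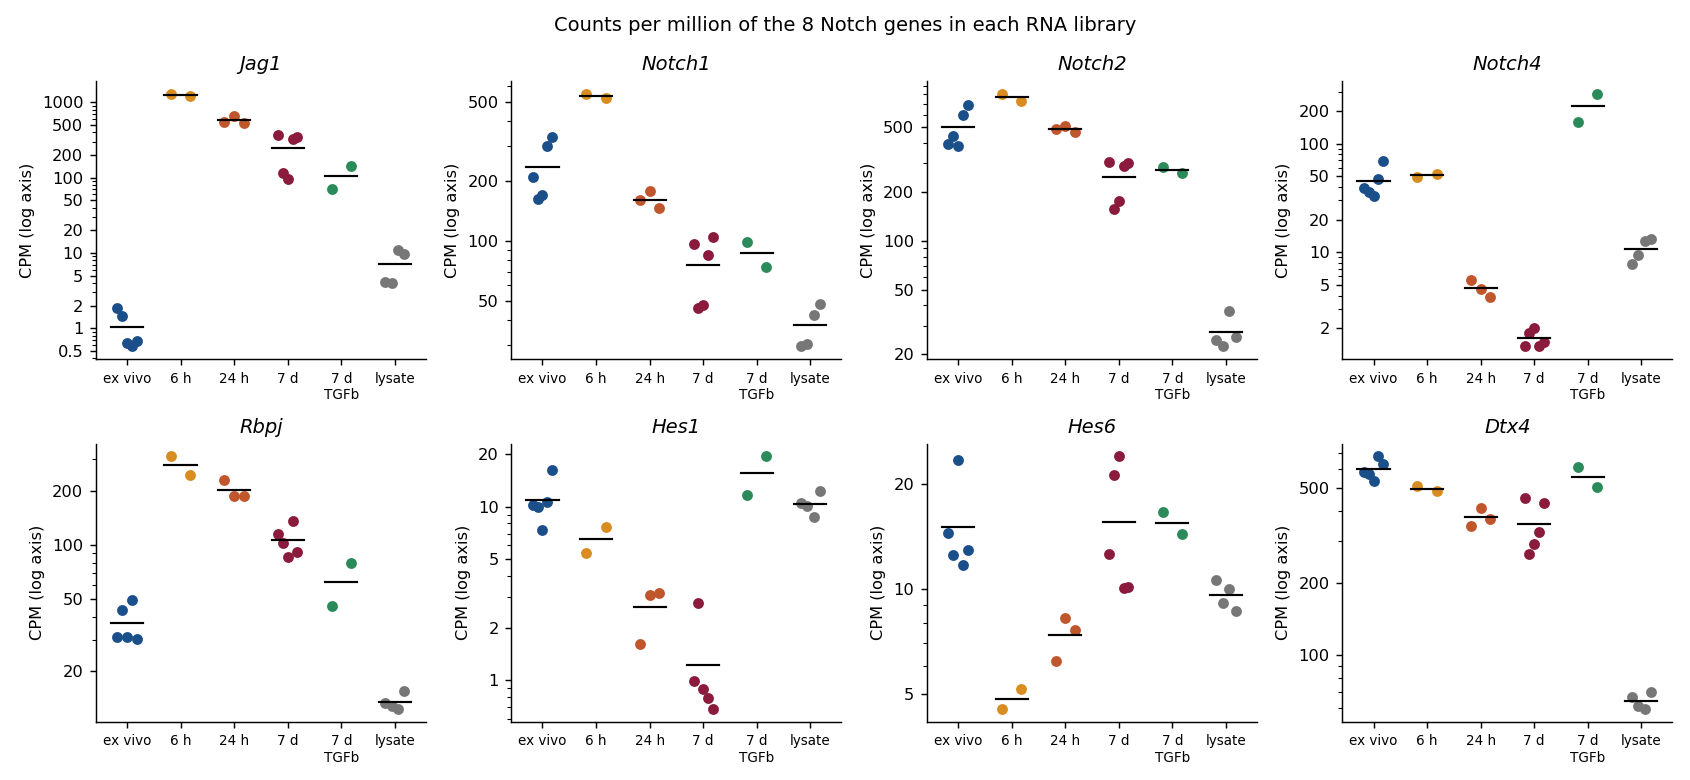
Each panel shows 1 gene, each point 1 RNA library and each line the group mean, on a logarithmic CPM axis; lysate points use the library sizes of the lysate comparison and all others those of the 17 microglial libraries. Jag1 goes from 0.573 to 1.86 CPM ex vivo to 1213 and 1308 CPM at 6 h, and Notch4 from 1.36 to 2.01 CPM at 7 d to 158 and 288 CPM with TGFβ.

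Jag1 is shown with the bases before its annotated start site, because an H3K27ac peak covered them in both ex vivo and 7 d cells. No ATAC-seq or PU.1 peak overlapped them. The nearest ATAC-seq peaks lay just outside, from chr2:137116690 ex vivo and chr2:137116696 at 7 d. The 150 bases are chr2:137116521-137116670 of GRCm38.p6, minus strand, from RefSeq, written 5′ to 3′ with none in capitals.
Jag1: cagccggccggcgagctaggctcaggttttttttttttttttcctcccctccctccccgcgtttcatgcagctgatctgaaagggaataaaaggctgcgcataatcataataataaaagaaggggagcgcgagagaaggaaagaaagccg

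Ex vivo, where Jag1 had 8 to 40 reads per library, 4 ATAC-seq peaks lay within 10 kb of the gene, 2 H3K27ac peaks were listed, 1 of them over the start site, and 3 PU.1 peaks were listed, all 3 overlapping an ATAC-seq peak. The 7 d list held 10 ATAC-seq peaks, which included overlaps with all 4 ex vivo peaks and 6 that overlapped none. The centres of these 6 lay at -578, 6406, 32666, 35785, 39490 and 41953 bases from the start site along the gene, the last 3 being inside the neighbouring gene Slx4ip. In the whole 7 d list 39.8% of peaks had no ex vivo overlap. Of 19907 protein-coding genes, 1241 (6.23%) had at least as many 7 d peaks without an ex vivo counterpart, and 230 (1.16%) also had no ex vivo peak without a 7 d counterpart.

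H3K27ac covered 2430 bases around Jag1 ex vivo and 4502 bases at 7 d, a ratio of 1.85, while the median ratio over 11567 genes marked in both lists was 0.784. These lists pool 2 libraries each, so no replicate spread can be given and no test was made. When sharing required overlap of at least 50% of the shorter peak, 7 peaks were listed at 7 d only and 1 ex vivo only, so that 1 ex vivo peak then lacked a 7 d counterpart.

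The receptors Notch1 and Notch2 are large single-pass membrane proteins that act both as ligand sensors and as precursors of the nuclear signal. Notch1 (chr2:26457902-26503822, minus strand) stood ex vivo at 211, 163, 171, 299 and 335 CPM in replicates 1 to 5. At 6 h it reached 551 and 526.2 CPM. At 24 h it was 160, 178 and 146 CPM, at 7 d 97.1, 46.0, 47.4, 84.8 and 105 CPM, and with TGFβ 99.2 and 74.4 CPM. The 6 h libraries were above all others, and the 7 d libraries were below all ex vivo libraries. Relative to ex vivo, Notch1 differed on the log2 scale by 1.19 ± 0.31 at 6 h, -0.55 ± 0.29 at 24 h, where the groups overlapped, and -1.63 ± 0.25 at 7 d. In the TGFβ group the difference was -1.44 ± 0.35.

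Notch2 (chr3:98013538-98150367, plus strand) followed the same order of groups. Its level was 396, 441, 386, 596 and 683 CPM ex vivo and 806 and 731 CPM at 6 h. It was 490, 510 and 468 CPM at 24 h and 306, 157, 176, 290 and 303 CPM at 7 d. In the TGFβ group it was 287 and 263 CPM. The log2 difference from ex vivo was 0.62 ± 0.26 at 6 h and -1.02 ± 0.20 at 7 d. With total counts alone the 6 h libraries (632 and 595 CPM) lay inside the ex vivo range (399 to 704 CPM). The 6 h difference shrank to as little as 0.22 under the alternatives. At 24 h the difference was -0.03 ± 0.23 with overlapping groups, a sign that changed with total counts alone (0.01). The TGFβ group differed by -0.87 ± 0.28. For both receptors the 7 d group and the TGFβ group overlapped, with log2 differences of 0.19 ± 0.32 for Notch1 and 0.16 ± 0.26 for Notch2. These became -0.13 and -0.12 when 7 d replicates 2 and 3, the lowest for both genes, were left out, an alternative chosen after seeing the data.

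Notch4, the receptor best known from blood vessels, gave the widest range of the 3 receptors. It lies at chr17:34564286-34588543 on the plus strand. Ex vivo it stood at 39.1, 35.9, 33.2, 47.2 and 69.2 CPM, and at 6 h at 49.6 and 52.9 CPM, inside the ex vivo range. At 24 h the libraries held 5.51, 4.61 and 3.87 CPM, and at 7 d 1.36, 1.82, 2.01, 1.39 and 1.49 CPM (35 to 54 reads). The 2 cultures with TGFβ held 158 and 288 CPM, above every other library of the series. The log2 difference from ex vivo was 0.19 ± 0.26 at 6 h (-0.20 with total counts alone), -3.27 ± 0.27 at 24 h and -4.79 ± 0.24 at 7 d. In the TGFβ group it was 2.31 ± 0.24. The difference of the TGFβ group from the 7 d group was 7.10 ± 0.28, or 137-fold.

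Markers of other cell types also differed between some of these groups, and 3 lists are given in full. With TGFβ neutrophil markers summed to 2.64 to 3.89 CPM, against 0.321 to 2.11 CPM at 7 d. B cell markers were at 2.59 to 3.26 against 0.455 to 2.27 CPM. T and NK cell markers were at 0.670 to 0.832 against 0 to 0.0803 CPM. Monocyte markers were lower, at 1.21 to 2.26 against 3.21 to 5.79 CPM, as were oligodendrocyte precursor markers. Astrocyte markers were at 172 to 399 CPM ex vivo and 1.76 to 2.62 CPM at 24 h. The summed CPM of 10 endothelial markers was 48.3 to 60.8 ex vivo and 43.5 to 48.3 at 6 h, and then 13.4 to 19.1 at 24 h, where Notch4 was also lower. It was 15.9 to 44.4 at 7 d and 47.0 to 86.5 with TGFβ; in these last 2 groups 5 of the 10, Cldn5, Ly6c1, Slco1a4, Emcn and Erg, were at 0. Flt1 alone stood at 9.75 to 35.4 CPM at 7 d and 24.2 to 55.1 CPM with TGFβ. The 7 mural cell markers summed to 3.56 to 6.67 CPM ex vivo and 78.0 to 86.8 CPM at 6 h. Their sum was 10.8 to 13.4 CPM at 24 h, 2.94 to 21.6 CPM at 7 d and 126 to 353 CPM with TGFβ. At 7 d and with TGFβ, Cspg4 alone gave 0.413 to 19.4 CPM and 124 to 350 CPM, while Rgs5 and Kcnj8 were at 0 in both groups. Border macrophage markers moved the other way, from 54.8 to 120 CPM at 7 d to 8.53 and 8.54 CPM with TGFβ, of which Mrc1 gave 45.0 to 89.2 and 4.13 to 4.18 CPM. Their sum was 7.65 to 116 CPM ex vivo, 2.07 and 4.81 CPM at 6 h and 1.08 to 2.65 CPM at 24 h. The part of these lists in the levels of Notch4, and of Hes1 below, was not tested. Proliferation genes summed to 331 and 1182 CPM in the TGFβ libraries against 70.0 to 778 CPM at 7 d. In such bulk libraries, a change in the number of cells of 1 type and a change in RNA per cell cannot be told apart.

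Levels of different receptors can be compared only per transcript length, for which the deposited TPM (transcript abundance scaled for length and depth) was used. Notch2 made up 60.4% ± 3.00 (SD, n = 5) of the summed TPM of Notch1 to Notch4 ex vivo, Notch1 31.1% ± 2.86 and Notch4 8.56% ± 0.733. At 7 d the shares were 74.2% ± 1.55 for Notch2, 24.9% ± 1.87 for Notch1 and 0.881% ± 0.451 for Notch4 (n = 5). With TGFβ, Notch4 was 38.8% and 57.0% of the sum, Notch2 44.3% and 32.7%, and Notch1 16.96% and 10.3%. Notch3 was at most 0.0377% in any microglial library and 25.03% ± 2.88 in lysate (n = 4). The summed receptor TPM was 154 ± 44.6 ex vivo, 204 ± 7.51 at 6 h (n = 2), 121 ± 5.97 at 24 h (n = 3), 52.7 ± 16.5 at 7 d and 105 ± 20.6 with TGFβ. These sums carry no TMM adjustment, which mattered most at 6 h, and the deposited columns sum to 568934 to 644847. Differences in them between groups therefore depend on the scaling, unlike the shares within a library.

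**Figure D2:**
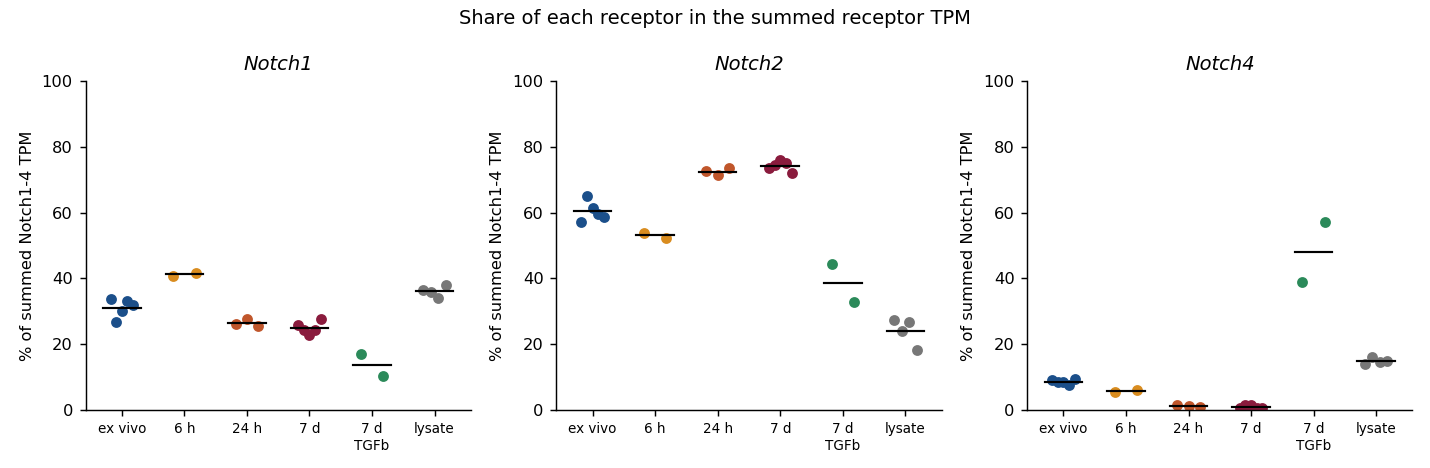
Points are libraries and lines group means; the vertical axis is the share (%) of each receptor in the summed TPM of Notch1 to Notch4. Notch4 was at most 9.46% of the sum ex vivo and at most 1.38% at 7 d, and was 38.8% and 57.0% in the 2 TGFβ libraries.

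The bases around the annotated start site of Notch4 are printed because Notch4 is the member with the widest change under TGFβ and because the only AP-1 motif among the members' promoter windows falls there. The 160 bases are chr17:34564145-34564304 of GRCm38.p6, plus strand, from RefSeq, and run to the 10th base after the start. Capitals mark the AP-1 motif TGANTCA, which begins 4 bases before the start.
Notch4: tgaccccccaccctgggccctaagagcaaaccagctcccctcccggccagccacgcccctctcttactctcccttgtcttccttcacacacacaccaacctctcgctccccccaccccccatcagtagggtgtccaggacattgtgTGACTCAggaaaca

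No ATAC-seq peak lay within 1 kb of this start site in either list, whereas 58.5% (ex vivo) and 59.5% (7 d) of 17492 protein-coding genes had one. An H3K27ac peak covered it ex vivo but not at 7 d, and an H3K4me2 peak covered it ex vivo. The nearest ATAC-seq peak was centred at -2875 bases from the start ex vivo and at -2869 bases at 7 d, and overlapped a PU.1 peak. All 7 ex vivo ATAC-seq peaks within 10 kb of Notch4 were also listed at 7 d, when the gene stood at 1.36 to 2.01 CPM, with 1 further peak at 7 d only. H3K27ac covered 15233 bases ex vivo and 10564 bases at 7 d, and 7592 and 7257 of these formed 1 peak at the 3′ end, which reaches over the neighbouring gene Gpsm3.

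At Notch1, H3K27ac covered 17946 bases ex vivo and 9620 bases at 7 d. At Notch2 the lengths were 32997 and 12688 bases, and 6 of 11 ex vivo H3K27ac peaks overlapped none at 7 d, against 32.2% over the whole ex vivo list. Notch1 had 8 ATAC-seq peaks ex vivo and 10 at 7 d, and Notch2 had 23 and 28, while the whole lists held 90674 and 112977 peaks. PU.1 peaks numbered 9 at Notch1, 24 at Notch2 and 7 at Notch4 ex vivo, and 6, 21 and 5 of them overlapped an ex vivo ATAC-seq peak, against 60.0% over the whole PU.1 list.

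**Figure D3:**
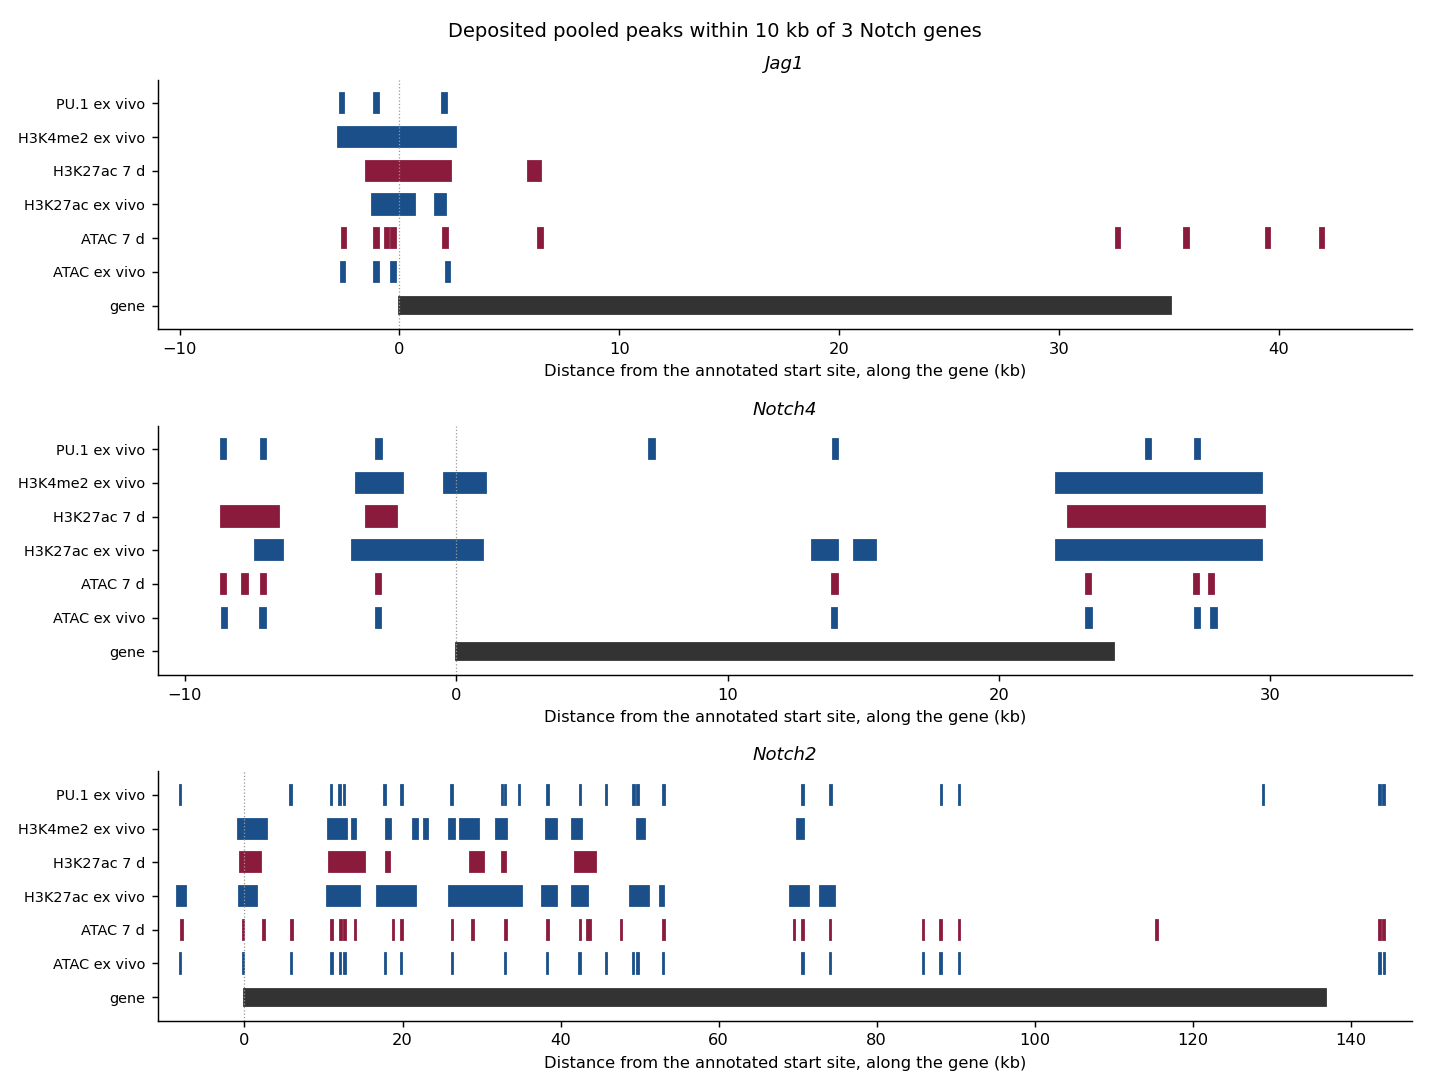
Boxes are the deposited peaks of pooled libraries (blue ex vivo, red 7 d) within 10 kb of Jag1, Notch4 and Notch2, drawn by distance in kb from the annotated start site along the gene, with the gene itself as the dark bar. Jag1 has 4 ATAC-seq peaks ex vivo and 10 at 7 d, Notch4 has none at its start, and the H3K27ac peaks of Notch2 number 11 ex vivo and 6 at 7 d.

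Rbpj encodes the DNA-binding protein to which the Notch intracellular domain binds and which represses targets in its absence (chr5:53555779-53657445, plus strand). RefSeq lists 3 Rbpj pseudogenes that are no rows of the count table, so its reads could include some from near-identical copies, and its values carry that uncertainty. Ex vivo it stood at 30.9, 43.9, 30.9, 49.7 and 30.1 CPM. It was 309 and 243 CPM at 6 h, 228, 187 and 186 CPM at 24 h and 116, 102, 85.8, 135 and 91.5 CPM at 7 d. With TGFβ it was 46.0 and 79.2 CPM, which overlapped the ex vivo range. All libraries cultured without TGFβ stood above all ex vivo libraries, and 6 h, 24 h, 7 d and TGFβ followed in that order without overlap between neighbours. The step from 6 h to 24 h depended on the scaling. With total counts alone the 6 h libraries (242 and 198 CPM) overlapped the 24 h libraries (244, 204 and 203 CPM). The log2 difference of 24 h from 6 h, -0.46 ± 0.26, shrank to as little as -0.02 under the alternatives. Rbpj differed from ex vivo, on the log2 scale, by 2.90 ± 0.22 at 6 h and 2.44 ± 0.21 at 24 h. The 7 d group differed by 1.52 ± 0.18 and the TGFβ group by 0.76 ± 0.23. The TGFβ group differed from 7 d by -0.76 ± 0.25.

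Promoter windows were at hand for all members but Hes1 and Dtx4, which were not searched. Among the members searched, only Rbpj had windows that held the core that RBPJ itself recognises, TGGGAA, on either strand. It was found in 25.6% of 32851 RefSeq promoter windows of the same length, so a match in any 1 gene is common. The 160 bases before the first listed start site are chr5:53590186-53590345 of GRCm38.p6, plus strand, with the core in capitals, first on the plus and then on the minus strand.
Rbpj: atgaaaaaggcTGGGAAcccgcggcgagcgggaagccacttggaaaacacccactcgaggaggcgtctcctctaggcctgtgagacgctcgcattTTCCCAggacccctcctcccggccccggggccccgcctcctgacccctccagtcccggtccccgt

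Besides TGGGAA and the AP-1 motif, which was in 7.81% of all windows and only in that of Notch4 among the members, 5 further motifs were searched on both strands. The Hes-bound N-box CACNAG (42.5% of all windows) was in those of Hes6, Notch1 and Notch2. The ETS core GGAAGT (23.8%) and the SMAD motif CAGACA (21.0%) were each in a window of Hes6 alone. The E-box CACGTG (7.15%) was in none, and the outline of NF-kB sites (50.8%) was in windows of all 6 members that have one. The TGGGAA core and the other motifs were searched separately, so matches may overlap. Windows of Notch1, Notch2, Hes6 and Rbpj were rich in G and C, at 68.3%, 73.0%, 62.0% and 65.0% (2 windows) and 64.7% and 67.0% (2 windows), against a median of 52.7%. Notch4 had 5 CpG dinucleotides and Jag1 22, against a median of 7. RefSeq windows matched 6 of the 8 members; Hes1 and Dtx4 were the other two.

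Around Rbpj, H3K27ac covered 5539 bases ex vivo and 12620 bases at 7 d, a ratio of 2.28. Jag1 and Rbpj, the 2 members with higher RNA at 7 d than ex vivo without overlap, were the 2 of 8 with more bases under H3K27ac at 7 d. In the other 6 the covered length was lower at 7 d, with ratios from 0.385 at Notch2 to 0.693 at Notch4. Over 11567 genes marked in both lists, 72.6% had less covered length at 7 d and 5.80% had at least double. The whole H3K27ac list held 24520 peaks of a median 1777 bases ex vivo and 31349 of a median 1117 bases at 7 d. ATAC-seq peaks at Rbpj numbered 16 ex vivo and 15 at 7 d, with 4 ex vivo only and 3 at 7 d only.

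Hes1 encodes a basic helix-loop-helix repressor that is the textbook target of Notch signalling. It lies at chr16:30065357-30067796 and was low in all groups. Ex vivo it stood at 10.2, 10.0, 7.38, 10.7 and 16.3 CPM, and at 6 h at 5.42 and 7.58 CPM. It was 1.62, 3.11 and 3.18 CPM at 24 h and 0.994, 2.78, 0.892, 0.792 and 0.683 CPM at 7 d (16 to 81 reads). With TGFβ it was 11.6 and 19.5 CPM. All 24 h and 7 d libraries were below all ex vivo libraries, and the TGFβ libraries were within or above the ex vivo range. From ex vivo it differed on the log2 scale by -0.75 ± 0.46 at 6 h, where the groups overlapped, and by -2.05 ± 0.43 at 24 h. The 7 d group differed by -3.13 ± 0.37 and the TGFβ group, which overlapped, by 0.51 ± 0.43. The TGFβ group stood 3.64 ± 0.43 above the 7 d group, or 12.5-fold. Hes1 thus had its lowest and highest group means in the same 2 groups as Notch4, while Rbpj was lower with TGFβ than without.

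Hes6 encodes a relative of Hes1 that counteracts it in neural cells (chr1:91411483-91414038, minus strand). Ex vivo it was 14.4, 12.5, 23.5, 11.8 and 12.9 CPM, with replicate 3 standing apart. That library had the lowest immediate-early sum and the highest sums of several other marker lists. Its astrocyte markers summed to 399 CPM against 172 to 259 CPM in the other 4, oligodendrocyte markers to 222 against 88.0 to 115 CPM and neuron markers to 17.7 against 2.43 to 6.17 CPM. Choroid and ependyma markers summed to 127 against 0.862 to 48.1 CPM, and border macrophage markers to 116 against 7.65 to 65.7 CPM; the part of these in its Hes6 level was not tested. It was 4.53 and 5.17 CPM at 6 h and 6.23, 8.23 and 7.65 CPM at 24 h. At 7 d it was 12.6, 21.2, 24.0, 10.1 and 10.2 CPM, and with TGFβ 16.6 and 14.3 CPM. The 6 h and 24 h libraries lay below all ex vivo libraries, and the 7 d and TGFβ libraries overlapped them. Against ex vivo the Hes6 difference (log2) was -1.63 ± 0.37 at 6 h and -1.03 ± 0.30 at 24 h. It was 0.05 ± 0.25 in the 7 d group and 0.04 ± 0.33 in the TGFβ group. The sign of the last 2 differences changed under several settings (to -0.46 at 7 d without its replicates 2 and 3, and to -0.13 for TGFβ with total counts alone). Replicates 2 and 3 at 7 d, the lowest for Jag1, Notch1 and Notch2, were the highest for Hes6.

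Dtx4 encodes an E3 ubiquitin ligase that binds Notch and takes part in its trafficking (chr19:12466329-12502179). It was the steadiest of the 8, with a ratio of 1.69 between its highest and lowest group means across the 5 microglial groups. Ex vivo it stood at 583, 570, 534, 677 and 630 CPM. It was 508 and 484 CPM at 6 h, 347, 414 and 372 CPM at 24 h and 453, 265, 291, 328 and 431 CPM at 7 d. With TGFβ it was 610 and 505 CPM. The log2 difference from ex vivo was -0.27 ± 0.19 at 6 h and -0.67 ± 0.17 at 24 h. It was -0.76 ± 0.14 in the 7 d group and -0.10 ± 0.19 in the TGFβ group. The TGFβ group stood 0.66 ± 0.18 above the 7 d group without overlap. H3K27ac covered 73.4% of the gene and its 10 kb flanks ex vivo and 42.6% at 7 d, a stretch that also holds Mpeg1, and 10 of 13 PU.1 peaks there overlapped an ex vivo ATAC-seq peak.

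Compared with whole-brain lysate, 6 of the 8 genes were higher in ex vivo microglia and 1 was lower without overlap between the groups, where 77.3% of 15335 genes tested did not overlap in one direction or the other and 82.7% passed an adjusted p under 0.05. The largest log2 difference was that of Notch2, at 4.41 ± 0.25 (583 ± 158 against 27.4 ± 6.63 CPM, n = 5 and 4). Dtx4 followed at 3.43 ± 0.13 (697 ± 68.4 against 64.4 ± 5.02 CPM), Notch1 at 2.87 ± 0.27 and Notch4 at 2.28 ± 0.26. Rbpj differed by 1.67 ± 0.19 and Hes6 by 0.87 ± 0.22. Jag1 was 5.86-fold lower ex vivo, at 1.203 ± 0.667 against 7.20 ± 3.67 CPM. Hes1, at 12.7 ± 3.94 and 10.4 ± 1.48 CPM, overlapped, and its log2 difference of 0.29 ± 0.23 became -0.04 with total counts alone. The lysate also held endothelial markers at 183 to 315 CPM and astrocyte markers at 4831 to 6839 CPM, against 48.3 to 60.8 and 172 to 399 CPM ex vivo; their part in these differences was not tested.

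**Figure D4:**
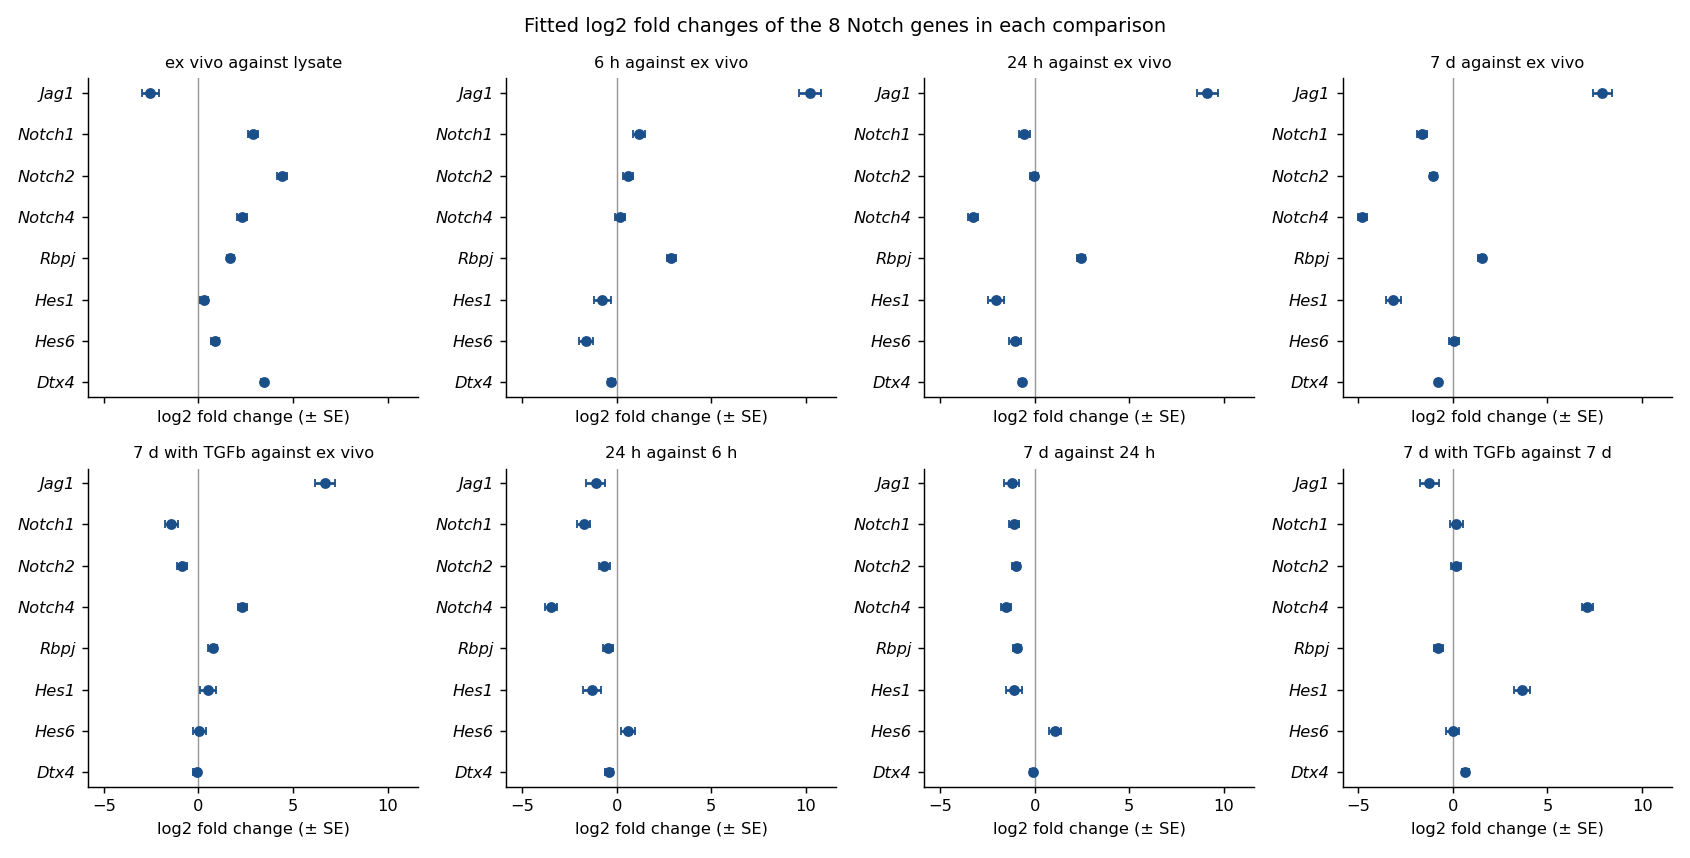
Points are fitted log2 fold changes and bars their standard errors for each of the 8 genes in the 8 comparisons, all on 1 horizontal scale. Jag1 lies at 10.23, 9.12 and 7.90 at 6 h, 24 h and 7 d against ex vivo, and Notch4 and Hes1 at 7.10 and 3.64 for TGFβ against 7 d.

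Counted over the 8 genes, 4 were higher and 2 lower without overlap at 6 h than ex vivo, where 71.2% of the 13840 genes tested did not overlap. Of these 4, Notch2 did overlap with total counts alone. At 24 h, 2 were higher and 4 lower (59.7% of all genes), and at 7 d, 2 were higher and 5 lower (52.2%). The TGFβ group against ex vivo had 2 higher and 2 lower (59.7%). Between 6 h and 24 h, Hes6 was higher and the other 7 lower at 24 h (71.8%), though Dtx4 changed sign, to 0.05, with total counts alone. On that scale the libraries of the 2 groups overlapped for both Rbpj and Dtx4. From 24 h to 7 d, Hes6 was higher and 5 were lower (52.5%). With TGFβ against 7 d, Notch4, Hes1 and Dtx4 were higher and Rbpj lower (34%). Since these genes were picked for such patterns, the counts are not read against the background. The 5 comparisons with ex vivo share the same 5 libraries, and the 7 d libraries enter 3 of the 8 comparisons.

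Between successive times in culture the members moved by different amounts. From 6 h to 24 h the lowest log2 difference was that of Notch4, at -3.46 ± 0.30 (SE), followed by Notch1 at -1.74 ± 0.35, Hes1 at -1.30 ± 0.49 and Jag1 at -1.11 ± 0.51. Notch2 (-0.65 ± 0.28), Rbpj (-0.46 ± 0.26) and Dtx4 (-0.39 ± 0.20) differed by less, and Hes6 stood higher at 24 h by 0.60 ± 0.38. From 24 h to 7 d, Notch4 (-1.52 ± 0.26), Jag1 (-1.22 ± 0.41), Notch1 (-1.09 ± 0.28), Notch2 (-0.99 ± 0.23) and Rbpj (-0.92 ± 0.20) were lower without overlap, and Hes6 was higher by 1.08 ± 0.30. Hes1 (-1.09 ± 0.41) and Dtx4 (-0.09 ± 0.16) overlapped between 24 h and 7 d. The 24 h libraries enter both of these comparisons.

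The other 55 genes of the pathway were tested with edgeR's quasi-likelihood test, adjusted over all genes tested. Ex vivo against lysate, 51 were tested, 24 were higher ex vivo and 21 lower, beside the 82.7% of all genes called. All 5 called ligand genes and all 5 called target genes were lower in microglia, and 11 of 15 genes for receptor glycosylation and cleavage were higher. Of 11 nuclear complex genes 8 were higher and 1 lower, and of 12 traffic genes 5 were higher and 6 lower. Over all 15335 genes tested, 6002 were higher and 6673 lower. Mfng, a fringe enzyme that adds sugars to Notch and sets its ligand preference, was higher by 5.84 ± 0.19 on the log2 scale (adjusted p = 9.88e-11). Adam17, a protease that cleaves Notch, was higher by 4.34 ± 0.13 (adjusted p = 6.45e-11), and Dtx3l, a Deltex ligase, by 4.53 ± 0.19 (adjusted p = 6.22e-10). Lower were the target Hey1 (-8.15 ± 0.28, adjusted p = 1.39e-10), Fbxw7, which marks the Notch intracellular domain for decay (-2.96 ± 0.13, adjusted p = 1.05e-09), and the inhibitor Numbl (-4.29 ± 0.20, adjusted p = 1.49e-09). Notch3 (-7.71 ± 0.51, adjusted p = 3.42e-08), Hes5 (-6.85 ± 0.53, adjusted p = 1.47e-07), Dll4 (-2.17 ± 0.39, adjusted p = 0.000231) and the feedback inhibitor Nrarp (-0.65 ± 0.19, adjusted p = 0.00732) were lower as well. Notch3, at 0.106 ± 0.140 CPM ex vivo, and Hes5, at 0.0950 ± 0.135 CPM, were near 0 in microglia and too low to be tested in the culture comparisons.

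**Figure D5:**
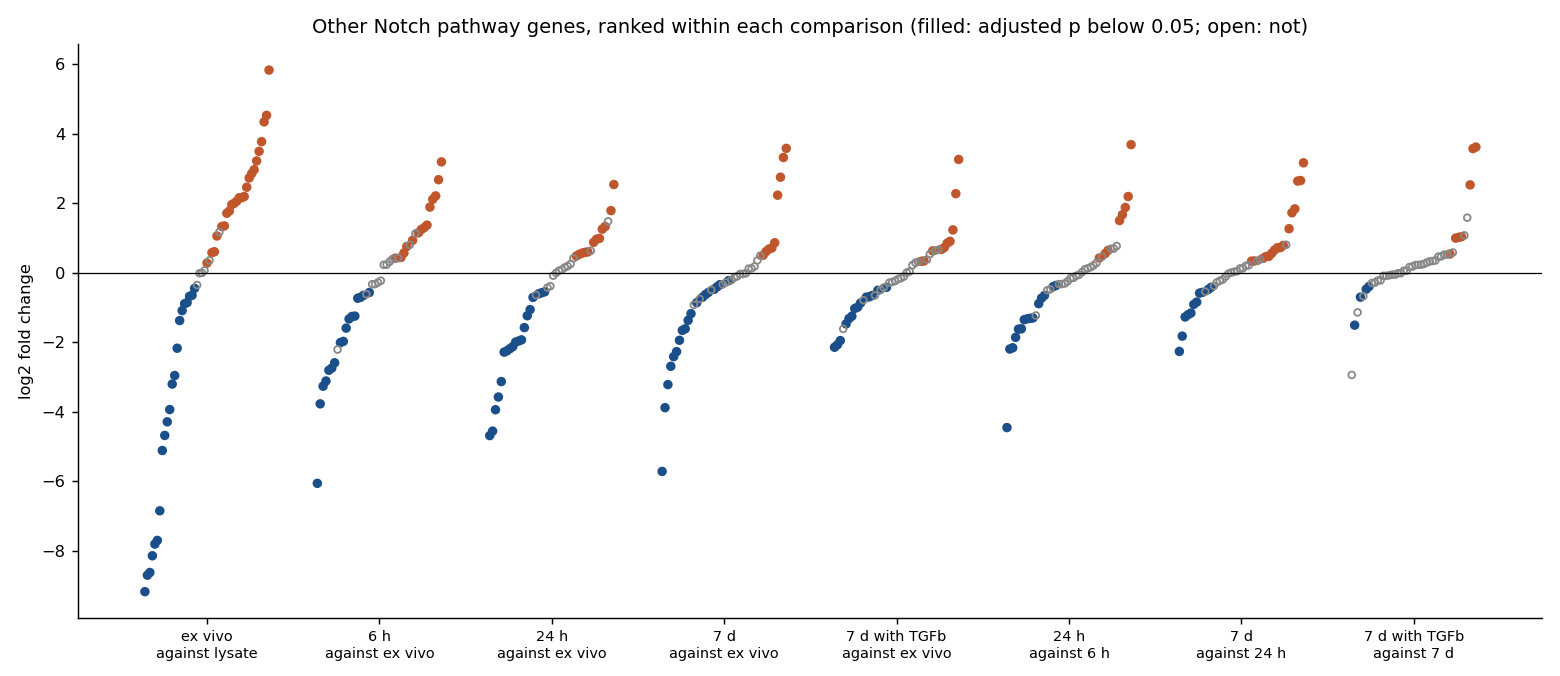
Each point is 1 of the 55 other pathway genes that could be tested, ranked by log2 fold change within a comparison; red and blue points rose or fell at an adjusted p under 0.05 and open points did not pass. With TGFβ against 7 d, 7 rose and 4 fell of 44, while 7 d against ex vivo had 9 and 19.

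At 6 h, 14 of 44 testable pathway genes rose and 17 fell against ex vivo (68% of all genes were called); with total counts alone 10 rose and 20 fell. Psen2, a catalytic subunit of γ-secretase, rose by 2.12 ± 0.13 (adjusted p = 6.44e-10), from 17.7 ± 1.57 to 76.6 ± 0.452 CPM. Furin, the protease that matures Notch in the Golgi, rose by 2.21 ± 0.17 (adjusted p = 7.43e-09) and Numbl by 2.68 ± 0.21 (adjusted p = 9.53e-09). Mfng fell by 2.59 ± 0.16 (adjusted p = 5.13e-10), Rfng, another fringe enzyme, by 3.77 ± 0.25 (adjusted p = 8.73e-10) and Mib2, a ligase for ligand uptake, by 2.75 ± 0.23 (adjusted p = 1.48e-08). Nrarp fell by 6.06 ± 0.56 (adjusted p = 5.58e-08), from 12.9 ± 2.54 to 0.190 ± 0.0570 CPM. Dll4, a Delta ligand, stood at 1.05 ± 0.835 against 0.482 ± 0.0663 CPM (adjusted p = 0.0871, and 0.0256 without 6 h replicate 2). Hey1 was near 0 in both groups (adjusted p = 0.120).

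At 24 h, 12 of 44 rose and 19 fell (62.8% of all genes were called). Psen2 rose by 2.54 ± 0.12 (adjusted p = 3.04e-11), Numbl by 1.79 ± 0.20 (adjusted p = 5.68e-07) and Adam17 by 0.88 ± 0.11 (adjusted p = 2.28e-06). Mfng fell by 3.94 ± 0.15 (adjusted p = 1.69e-12), and the Mastermind coactivators Maml3 and Maml2 fell by 2.25 ± 0.17 (adjusted p = 6.09e-09) and 2.13 ± 0.17 (adjusted p = 1.08e-08). Nrarp fell by 4.56 ± 0.40 (adjusted p = 3.94e-08). Dll4 rose by 1.26 ± 0.50 (adjusted p = 0.0375), a call that was lost without any 1 of 24 h replicates 1 and 3 and ex vivo replicates 1, 2, 3 and 5 (adjusted p = 0.0509 to 0.101). Hey1, at 0.413 ± 0.149 against 0.140 ± 0.0959 CPM, did not pass (adjusted p = 0.0609) except without ex vivo replicate 3 (adjusted p = 0.0274).

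At 7 d, 9 of 44 rose and 19 fell (70.5% of all genes were called). Psen2 rose by 2.75 ± 0.12 (adjusted p = 5.15e-12), to 119 ± 16.96 CPM, and the γ-secretase subunit gene Aph1c by 2.23 ± 0.17 (adjusted p = 4.84e-09). The corepressor gene Ctbp1 rose by 0.86 ± 0.10 (adjusted p = 1.18e-06). Mfng fell by 3.22 ± 0.11 (adjusted p = 7.54e-13), to 15.6 ± 2.05 CPM, Nrarp fell by 5.72 ± 0.35 (adjusted p = 3.48e-10) and Maml3 fell by 2.27 ± 0.14 (adjusted p = 4.01e-10). Hey1 rose by 3.32 ± 0.57 (adjusted p = 7.28e-05), to 1.49 ± 0.818 CPM. Dll4, at 0.476 ± 0.279 CPM, did not pass (adjusted p = 0.975).

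In the TGFβ group against ex vivo, 10 of 44 rose and 14 fell (55.8% of all genes were called), and 5 rose and 18 fell on the deposited TPM. Psen2 rose by 2.28 ± 0.13 (adjusted p = 9.81e-10), Furin by 1.23 ± 0.18 (adjusted p = 2.10e-05) and Ctbp1 by 0.85 ± 0.13 (adjusted p = 4.18e-05). Numb fell by 2.07 ± 0.21 (adjusted p = 5.65e-07), Neurl1a, a ligase for ligands, by 1.95 ± 0.24 (adjusted p = 3.64e-06) and Pofut1, which fucosylates Notch, by 0.99 ± 0.14 (adjusted p = 1.49e-05). Nrarp was lower by a log2 value of -2.15 ± 0.40 (adjusted p = 0.000279) and Hey1 rose by 3.26 ± 0.66 (adjusted p = 0.000573). Dll4 did not pass (adjusted p = 0.759).

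Between 6 h and 24 h, 8 of 44 rose and 15 fell (41.8% of all genes were called), which total counts alone turned to 13 and 10. Rfng rose by 2.19 ± 0.24 (adjusted p = 3.64e-06), Aph1c by 1.67 ± 0.25 (adjusted p = 7.41e-05) and Poglut1, a glucosyltransferase for Notch, by 0.64 ± 0.14 (adjusted p = 0.00143). Numb, an inhibitor of Notch, fell by 2.16 ± 0.20 (adjusted p = 8.62e-07), the fringe enzyme Lfng fell by 2.20 ± 0.25 (adjusted p = 4.78e-06) and Mfng by 1.35 ± 0.15 (adjusted p = 4.91e-06). Hey1 rose by 3.69 ± 1.17 (adjusted p = 0.0179), from near 0. That call was lost without 6 h replicate 1 (adjusted p = 0.167) and on the deposited TPM with limma, where the log2 difference was 0.40 (adjusted p = 0.233, and 0.268 unfiltered). Nrarp rose by 1.50 ± 0.58 (adjusted p = 0.0473), a call lost without any 1 of the 5 libraries (adjusted p = 0.0553 to 0.274). It was also lost with DESeq2's size factors (adjusted p = 0.0579), with DESeq2's Wald test (0.0668), without the filter on low counts (0.0547) and on the deposited TPM (0.176). A replicate block in the fit lost the Nrarp call too (adjusted p = 0.0572). Dll4 did not pass (adjusted p = 0.896).

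From 24 h to 7 d, 16 of 44 rose and 11 fell (48.8% of all genes were called), and on the deposited TPM 10 rose and 11 fell. Aph1c rose by 1.27 ± 0.19 (adjusted p = 5.02e-05), Mfng by 0.72 ± 0.13 (adjusted p = 0.000225) and Dll1, a Delta ligand, by 2.64 ± 0.56 (adjusted p = 0.000995), to 1.62 ± 1.08 CPM. Numbl fell by 1.83 ± 0.20 (adjusted p = 1.40e-06), Adam17 by 0.91 ± 0.11 (adjusted p = 4.46e-06) and the Deltex gene Dtx2 by 0.85 ± 0.17 (adjusted p = 0.000733). Hey1 rose by 1.84 ± 0.60 (adjusted p = 0.0189, lost without 24 h replicate 2 or 3 at 0.0559 and 0.0911). Nrarp fell by 1.16 ± 0.40 (adjusted p = 0.0251), which was lost without 24 h replicate 2 (0.111), on the deposited TPM (0.140) and in a fit of these 2 groups alone (0.0722). Dll4 fell by 1.27 ± 0.49 (adjusted p = 0.0406), a call lost without any 1 of the 24 h replicates or 7 d replicates 2 to 5 (adjusted p = 0.0525 to 0.113) and without the filter on low counts (0.0532).

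With TGFβ against 7 d, 7 of 44 rose and 4 fell, next to 16.1% of all genes called; 7 in all were called without TGFβ replicate 2. On the deposited TPM 6 rose and 7 fell, and with DESeq2's size factors 8 rose and 2 fell. Mfng rose by 2.53 ± 0.13 (adjusted p = 1.18e-09), to 90.1 ± 6.86 CPM. The target gene Nrarp rose by 3.57 ± 0.38 (adjusted p = 4.43e-06), from 0.235 ± 0.135 to 2.90 ± 0.748 CPM, which was still below its 12.9 ± 2.54 CPM ex vivo. The ligand gene Jag2 rose by 3.62 ± 0.53 (adjusted p = 0.000160), from 2.02 ± 1.74 to 25.2 ± 11.3 CPM. Aph1c fell by 1.51 ± 0.23 (adjusted p = 0.000169). Numb fell by 0.70 ± 0.19 (adjusted p = 0.0189, and 0.131 or 0.123 without TGFβ replicate 1 or 2), and did not pass in a fit of the 2 groups alone (adjusted p = 0.0768). Psen2 fell by 0.47 ± 0.14 (adjusted p = 0.0330), a call lost without TGFβ replicate 1 or 2 or 7 d replicate 1, 4 or 5 (adjusted p = 0.0592 to 0.282). The Psen2 call was lost as well with DESeq2's size factors (adjusted p = 0.0563), without the filter on low counts (0.0692) and in a fit of the 2 groups alone (0.126). A replicate block in the fit lost the Psen2 call too (adjusted p = 0.128). Hey1 (adjusted p = 0.975) and Dll4 (adjusted p = 0.866) did not pass.

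Across the 17 microglial libraries, the genes whose log2 CPM ran most closely with each member were taken from 7917 named genes that reached a mean of 20 CPM in at least 1 group. These libraries share 5 groups, so the correlations mostly describe the order of the groups, and they carry no p. Jag1 ran with Bcl6, a transcriptional repressor (Pearson r = 0.993), the co-receptor gene Nrp2 (0.992) and the elongation factor gene Ell2 (0.991). Notch4 ran with Pear1, a receptor of platelets and vessels (0.974), the procollagen protease gene Bmp1 (0.956) and Vhl (0.940). Hes1 ran with Epha2 (0.948), with Notch4 itself (0.936) and with Pear1 (0.929), so that 2 of its 3 closest genes were Notch4 and the gene closest to Notch4. Their Spearman coefficients were 0.909 for Notch4 and 0.900 for Pear1.

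Rbpj ran with Zc3hav1 (0.983), Ascc3 (0.981) and Klf10 (0.980). Notch1 ran with Mapk8ip3 (0.978) and the histone methyltransferase genes Setd1b (0.976) and Kmt2b (0.974), and Notch2 with Kmt2d (0.972), another gene of that kind, Smg1 (0.970) and Wdr82 (0.968). Hes6 ran with Ptpn18 (0.958), D10Jhu81e (0.932) and Zfp414 (0.927). Dtx4 ran with Ldlrad4 (0.955), Prex1 (0.953) and Fmnl3 (0.942).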

How the data were processed

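Poly(A) RNA was sequenced from sorted microglia and brain lysate. The deposited read counts per gene symbol and the deposited TPM table (whose columns sum to 568934 to 644847) were used as given by the authors; per the submitters' processing notes the tools included STAR, Bowtie2, HOMER and R 3.3.1, with mouse build mm10. How strand and multi-mapping reads were counted is not stated. Peak lists, deposited as intervals that carry no score, were made with HOMER on pooled libraries per the file headers, against an input library except for ATAC-seq.

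edgeR 4.0.16 (R 4.3.3) fitted the counts, after filterByExpr and TMM, by robust quasi-likelihood, 17 microglial libraries in 1 model (13840 genes) and 9 ex vivo and lysate libraries in another (15335 genes), with Benjamini-Hochberg adjustment and a threshold of 0.05. Each SE comes from the fold change and its F statistic. All 8 genes passed the filter in both models. On simulated counts for 8 comparisons the fit recovered 41 to 92% of 2-fold and 99 to 100% of 4-fold changes. The simulation used ex vivo means in every group, 200 changed genes and the same spread setting for all genes. Its rates therefore do not give the power for genes that vary more, or where many genes change. Peaks were assigned within 10 kb of a gene, and overlap of 1 base counted as shared. Alternatives used DESeq2 1.42.0, limma 3.58.1 on log2(TPM + 1), other scalings and filters, a replicate block and leaving out each library. The genes, the marker and pathway lists and the peak windows were chosen with earlier results of these data known. Named pathway genes are, per comparison, the 3 rises and 3 falls with the smallest adjusted p, and Notch3, Dll4, Hes5, Hey1 and Nrarp where testable. Lysate and input libraries enter no other comparison.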

Additional observations from a re-analysis of the deposited data

Results flagged for a closer look

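Among 98 groups of 4 or 5 libraries examined for the 8 genes and the named pathway genes, 11 values stood apart from the rest of their group by a gap larger than chance gives in about 1 of 20 groups. Hes1 in 7 d replicate 2 was 2.78 CPM against 0.683 to 0.994 CPM in the other 4. Hes6 in ex vivo replicate 3 was 23.5 CPM against 11.8 to 14.4 CPM, and Nrarp in the same library 17.3 CPM against 10.9 to 12.4 CPM; this library also held the highest sums of astrocyte (399 CPM), oligodendrocyte (222 CPM) and neuron (17.7 CPM) markers among the ex vivo libraries, whose part was not tested. In ex vivo replicate 2, Ctbp1 was 83.3 CPM against 102 to 110 CPM, Maml2 192 CPM against 120 to 139 CPM and Poglut1 47.5 CPM against 36.3 to 39.4 CPM. Dll1 in 7 d replicate 3 was 3.49 CPM against 0.768 to 1.51 CPM. In lysate replicate 3, Maml2 was 17.7 CPM against 10.2 to 10.5 CPM and Numb 41.2 CPM against 64.1 to 66.4 CPM. In lysate replicate 2, Numbl was 148 CPM against 130 to 131 CPM and Poglut1 42.0 CPM against 37.2 to 37.5 CPM.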

How the results depend on the processing

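Of 64 log2 differences of the 8 genes, 53 kept their sign under all alternatives run. The 11 others were Hes6 at 7 d and with TGFβ (3 comparisons), Notch2 at 24 h, Notch4 at 6 h, Hes1 against lysate (-0.06 to 0.37), Dtx4 in 3 comparisons, and Notch1 and Notch2 with TGFβ against 7 d. The Jag1 difference at 6 h was 7.98 on log2(TPM + 1) and that of Notch4 with TGFβ against 7 d was 5.15, since the pseudocount lowers changes of low genes. Hes1 at 7 d against 24 h was -1.09, and -1.68 without 7 d replicates 2 and 3. The count of genes called was 5779 for 24 h against 6 h and 3615 to 4933 without 1 library, and 2227 for TGFβ against 7 d and 1260 to 2326 without 1 library; the count of other pathway genes there was 11, and 7 to 11. A group left with 1 library is assumed to vary like the others. The split of all called genes (higher and lower) was 3045 and 2734 for 24 h against 6 h, but 5043 and 1332 with total counts and 4334 and 1477 on TPM. For 6 h against ex vivo it was 4312 and 5099, but 3068 and 6322 with total counts and 3093 and 5744 on TPM. For TGFβ against 7 d it was 1325 and 902, but 1136 and 1273 with total counts and 948 and 1553 on TPM. For 7 d against 24 h it was 3769 and 2985, and 2659 and 3858 on TPM; for TGFβ against ex vivo 3920 and 3801, and 2545 and 5205 on TPM; for 7 d against ex vivo 4821 and 4943, and 3886 and 6117 on unfiltered TPM. Of 63 calls of named pathway genes, 55 held under all alternatives run. With a replicate block the pathway counts were 46, 30, 31, 29, 22, 20, 26 and 14 in the order ex vivo against lysate, 6 h, 24 h, 7 d and TGFβ against ex vivo, 24 h against 6 h, 7 d against 24 h and TGFβ against 7 d. The deviations of same-numbered libraries from their group means correlated by -0.14 to 0.38. No comparison with 3 or more pairs had all correlations above 0.1, and the labels tie no numbers to a mouse or day, so the numbers were not used to pair. With only 2 pairs, 24 h and 6 h (0.23 and 0.24) and TGFβ and 7 d (0.11 and 0.38) had both above 0.1. In a group of 2 libraries the deviations from the mean mirror each other, so such values are not independent. They do not settle whether these were paired. Of 48 correlations with like genes under other measures, 33 moved by more than their jackknife error. Of 168 peak values, 56 moved by over 1.5 times with the window or overlap. A stricter peak threshold was not run, as the lists hold no score. At 16 to 81 reads per library, Hes1 at 7 d, and Jag1 ex vivo, are limited by depth.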
